A study of Rattus norvegicus with 3 samples.

Results

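The genes described here are those of the hypoxia-inducible factors (HIFs) and of the enzymes that read oxygen for them: the alpha subunits Hif1a, Epas1 and Hif3a, the beta subunits Arnt and Arnt2, the prolyl hydroxylases Egln1, Egln2 and Egln3, the asparaginyl hydroxylase Hif1an, and Vhl. They were chosen by exact gene name, as genes of the response to low oxygen, and 9 of the 10 were found among 30957 genes in the deposited tables. Egln1 had no row under that name and was not analysed here. Messenger RNA was sequenced from motor cortex of 3 male Sprague-Dawley rats, numbered 12, 24-4 and 33, 1 library each. All 3 carried the same treatment, cerebral ischemia and reperfusion (blood flow to the brain was interrupted and restored) with electroacupuncture at the GB20 (Fengchi) point, and the same time label of 8 weeks, whose starting point the labels do not give. There is 1 group, so the data give levels, ratios between genes within a rat, and differences between treated rats. Rats without the operation or the stimulation were not analysed here, so neither ischemia nor acupuncture could be tested for an effect.

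HIFs are pairs of an alpha and a beta subunit that switch on genes for glucose use, vessel growth and red cell formation. In oxygen, prolyl hydroxylases mark the alpha subunit, the Vhl protein binds the marked form and the ubiquitin ligase it belongs to sends it for degradation. Hif1an marks a different residue and blocks the binding of coactivators. When oxygen falls, these enzymes slow and the alpha protein accumulates, so much of the control lies in protein stability, which messenger RNA does not show. In brain, Hif1a is used by many cell types, Epas1 is known for its high level in endothelium and glia, and Arnt2 is the beta subunit known from neurons.

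HIFs bind DNA at a short core, ACGTG or GCGTG. Both were searched on both strands in the window from 250 bases before to 50 after the start of each gene (RefSeq, GRCr8). All 10 genes had a window and Hif3a had 2, which gave 11, and 4 of the 11 (36.4%) held a core, in Hif1a, Hif3a, Arnt and Egln1. Over all 33469 windows the share was 41.6%, with ACGTG in 19.3% and GCGTG in 29.7%, so the members' share lay near that of genes in general. The windows below are those of the alpha and beta subunits that were lowest in rat 24-4 with FPKM above 1 (Hif1a, Epas1, Arnt) and of the hydroxylases that were highest in that rat (Egln2, Egln3). Each is written in lower case along the gene's own strand, with the bases of a core in capitals.
Hif1a (chr6:98359648-98359947, plus strand): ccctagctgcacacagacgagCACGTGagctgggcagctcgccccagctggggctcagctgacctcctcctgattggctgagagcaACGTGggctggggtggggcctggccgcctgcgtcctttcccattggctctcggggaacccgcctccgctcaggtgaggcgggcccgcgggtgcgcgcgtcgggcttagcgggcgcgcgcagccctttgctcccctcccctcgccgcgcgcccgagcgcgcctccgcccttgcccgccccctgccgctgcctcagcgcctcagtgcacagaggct
Epas1 (chr6:13624680-13624979, minus strand): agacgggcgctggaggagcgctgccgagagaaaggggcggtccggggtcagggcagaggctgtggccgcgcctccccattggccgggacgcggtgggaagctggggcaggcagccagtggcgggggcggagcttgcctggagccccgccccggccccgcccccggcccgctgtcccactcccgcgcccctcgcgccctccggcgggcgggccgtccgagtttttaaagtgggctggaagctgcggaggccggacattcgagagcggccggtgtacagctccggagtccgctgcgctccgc
Arnt (chr2:185686453-185686752, plus strand): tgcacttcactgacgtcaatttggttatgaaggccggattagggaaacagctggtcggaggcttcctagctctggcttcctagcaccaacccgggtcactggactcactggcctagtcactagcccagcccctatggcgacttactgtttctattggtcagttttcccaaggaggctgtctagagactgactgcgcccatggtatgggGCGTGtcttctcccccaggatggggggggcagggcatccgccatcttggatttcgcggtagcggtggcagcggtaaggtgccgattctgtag
Egln2 (chr1:91586936-91587235, minus strand): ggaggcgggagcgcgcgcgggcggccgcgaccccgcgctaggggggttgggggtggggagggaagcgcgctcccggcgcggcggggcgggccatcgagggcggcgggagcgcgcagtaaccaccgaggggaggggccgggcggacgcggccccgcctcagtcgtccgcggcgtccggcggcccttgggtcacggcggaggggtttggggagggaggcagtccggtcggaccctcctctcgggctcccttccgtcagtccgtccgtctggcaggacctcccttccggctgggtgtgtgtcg
Egln3 (chr6:77410966-77411265, minus strand): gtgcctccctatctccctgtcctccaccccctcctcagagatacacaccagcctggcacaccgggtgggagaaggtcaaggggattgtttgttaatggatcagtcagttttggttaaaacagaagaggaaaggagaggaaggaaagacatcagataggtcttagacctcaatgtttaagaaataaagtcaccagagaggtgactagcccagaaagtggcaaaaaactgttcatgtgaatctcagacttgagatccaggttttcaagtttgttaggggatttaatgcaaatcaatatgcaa
The Hif1a window held ACGTG in 3 readings, of which the readings that begin at -229 and -228 from the start overlap, because CACGTG reads the same on both strands, and the third begins at -164. The Arnt window held a single GCGTG at -42. No core stood in the windows of Epas1, Egln2 and Egln3. The windows differed widely in base composition, with GC contents of 44.7% in Egln3, 57.3% in Arnt, 73.7% in Hif1a, 75.7% in Epas1 and 78.3% in Egln2, against a median of 51.7% over all windows. A match of letters is a description and does not show that a factor binds there.

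Levels are given as FPKM, a fragment number scaled for gene length and library size, and can be compared between genes. The estimated depths were 15330000, 17230000 and 13000000 fragments in rats 12, 24-4 and 33. A gene of 1 kb with 3 fragments would stand at an FPKM of 0.196, 0.174 and 0.231 in these rats. Neuron markers were present in every library, with summed FPKM of 4098, 3356 and 2014 over 10 genes. Of the marker lists, only that of choroid plexus held genes that passed the variability test given below, 5 of 7. These genes mark the epithelium that makes cerebrospinal fluid. The 7 of 8 choroid plexus markers found summed to 3347, 130.0 and 13247 FPKM in rats 12, 24-4 and 33, led by Ttr and Sostdc1, with none at 0 and Otx2 not found. The mitochondrial genome held 26.6%, 14.4% and 20.9% of all FPKM. In such tissue a smaller number of cells of a type and less RNA per cell cannot be told apart.

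Epas1 and Arnt2 had the highest levels of the 9 genes and Hif3a the lowest. Arnt2 had a mean FPKM of 50.3 ± 9.96 (SD, n = 3 rats, here and below) and Epas1 of 49.3 ± 12.7, which placed them above 88.8% and 88.5% of the 13754 genes whose mean FPKM reached 1. Egln2 followed at 35.1 ± 9.16, Hif1a at 19.8 ± 4.44 and Vhl at 18.6 ± 3.29. Egln3 (9.68 ± 2.18), Hif1an (9.00 ± 1.05) and Arnt (8.90 ± 2.10) lay close together and stood above 44.9% to 47.6% of those genes. Hif3a stood at 0.522 ± 0.125.

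**Figure D1:**
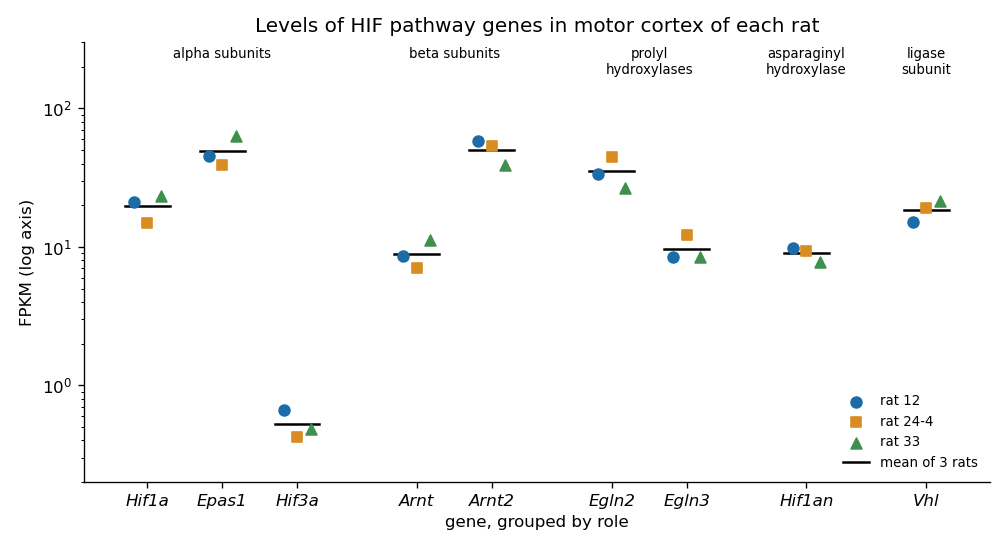
FPKM of each gene (log axis), grouped by role, with 1 point per rat and a bar at the mean of the 3 rats. Epas1 and Arnt2 have means of 49.3 and 50.3 FPKM, Hif3a has 0.522, and the other genes lie between 8.90 and 35.1.

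Among the alpha subunits, Hif1a, which encodes HIF-1 alpha, had an FPKM of 21.2, 14.8 and 23.4 in rats 12, 24-4 and 33. Rat 24-4 was the lowest, and rats 12 and 33 lay close together. The gene lies on chromosome 6, 96810907 to 96856052, plus strand (Rnor_6.0, as in the deposited tables, here and below). Epas1, which encodes HIF-2 alpha (chromosome 6, 10306405 to 10387265, plus strand), had 45.1, 39.2 and 63.5 FPKM in rats 12, 24-4 and 33, and again rat 24-4 was the lowest. It was above Hif1a in every rat, by 2.13, 2.64 and 2.72 times in FPKM. On the log2(FPKM + 1) scale Hif1a minus Epas1 was -1.27 ± 0.19. Hif3a (chromosome 1, 78976318 to 78997869, minus strand), whose product in several forms restrains the other alpha subunits, had 0.662, 0.421 and 0.483. These lie above the level of 3 fragments in a gene of 1 kb in every rat, but the gene's own fragment count is not known, so no counting interval is given. Epas1 minus Hif3a was 5.02 ± 0.37 and Hif1a minus Hif3a 3.75 ± 0.28. Both understate the distance, because the added 1 is larger than Hif3a's level.

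The beta subunits differed in level and in the rat that was highest. Arnt, also called HIF-1 beta and a partner of the aryl hydrocarbon receptor as well (chromosome 2, 196594303 to 196651179, plus strand), had 8.53, 7.01 and 11.2 FPKM in rats 12, 24-4 and 33. Arnt2 (chromosome 1, 146399217 to 146556171, minus strand) had 58.1, 53.7 and 39.1. Arnt was highest in rat 33 and Arnt2 lowest there. Arnt2 was above Arnt in every rat, by 6.81, 7.66 and 3.50 times. The log2 difference was 2.37 ± 0.57, and rat 33 had the smallest.

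Both measured prolyl hydroxylases were highest in rat 24-4. Egln2, which encodes PHD1 (chromosome 1, 83969457 to 83977236, minus strand), had 33.5, 44.9 and 26.8 FPKM in rats 12, 24-4 and 33. Egln3, which encodes PHD3 and is itself a known HIF target (chromosome 6, 75050329 to 75075795, minus strand), had 8.39, 12.2 and 8.45. Rats 12 and 33 differed little in Egln3, and rat 24-4 stood above both. Egln2 was above Egln3 by 3.99, 3.68 and 3.17 times, a log2 difference of 1.74 ± 0.17. Hif1an (chromosome 1, 264309214 to 264319267, plus strand) had 9.78, 9.40 and 7.81 and the smallest relative spread of the 9 genes, with a coefficient of variation of 11.6%. Vhl (chromosome 4, 145580799 to 145587845, plus strand) had 15.0, 19.1 and 21.5, with rat 12 the lowest.

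**Figure D2:**
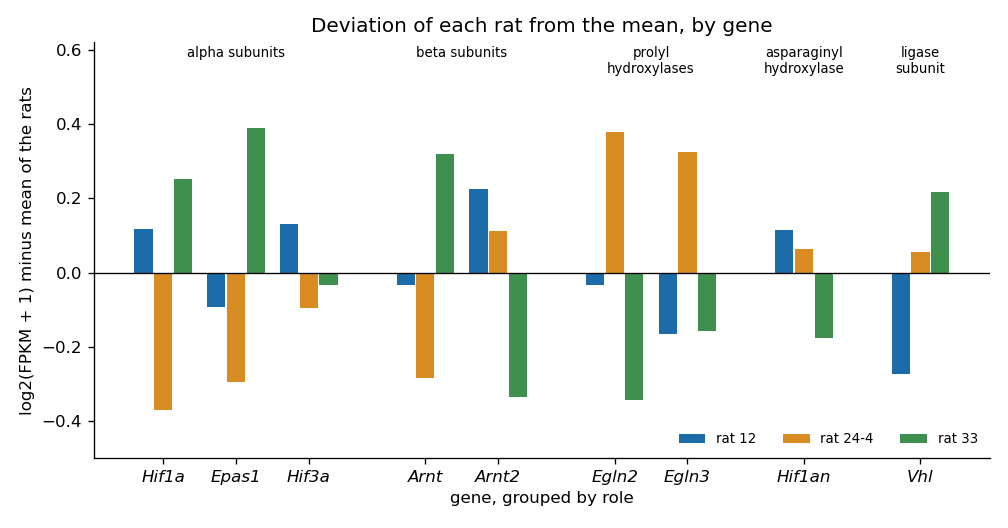
Difference of each rat from the mean of the 3 rats in log2(FPKM + 1), by gene. Rat 24-4 is at -0.37 for Hif1a, -0.29 for Epas1 and -0.28 for Arnt, and at 0.38 for Egln2 and 0.32 for Egln3.

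A limma test across 13754 genes asked of each whether its spread over the 3 animals exceeded that fitted for genes of like expression. Of these 14 (0.102%) passed at a Benjamini-Hochberg adjusted p under 0.05, and for 820 the p before adjustment was under 0.05. The filter on mean FPKM let 8 of the 9 genes into the test, all but Hif3a, and 0 of the 8 passed at an adjusted or an unadjusted p under 0.05. Their limma adjusted p-values lay between 0.993 and 0.994. Their variance was between 0.188 times (Hif1an) and 1.02 times (Egln2) that fitted for genes of the same level. The median SD of log2(FPKM + 1) was 0.30 over the 8 genes and 0.32 over all genes tested. No difference between rats in these 8 genes passed the test, and the patterns below are descriptions of these 3 animals. With 3 rats, a result that did not pass does not show that the rats were alike.

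Hif1a, Epas1 and Arnt shared the order rat 33, rat 12, rat 24-4. This order held for 3 of the 9 genes and for 20.7% of all genes tested. It is also the order of all 7 choroid plexus markers found, whose part in these levels was not tested. Epas1 and Arnt kept the order when FPKM was rescaled by median of ratios, to equal sums, or without the mitochondrial genome. Hif1a kept it only with equal sums, and by the other scalings its highest rat was rat 12. Under each of these scalings rat 24-4 was lowest for Hif1a, Epas1, Hif3a and Arnt and highest for Egln2 and Egln3. Among all genes tested, 33.3% were lowest and 34.2% highest in rat 24-4.

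Epas1 and the beta subunit Arnt stood in a nearly constant ratio. Epas1 was 5.29, 5.59 and 5.68 times Arnt in FPKM in rats 12, 24-4 and 33, and their log2 difference of 2.34 had an SD of 0.07. Of 13753 other genes tested, 1.39% differed from Epas1 with a smaller SD, and the median SD was 0.43. Hif1a was 2.48, 2.11 and 2.09 times Arnt (SD of the log2 difference 0.13), and 6.04% of genes had a smaller SD against Hif1a. Arnt2 showed its closest ratio with Hif1an, at 5.94, 5.71 and 5.01 times (SD 0.14), where 4.07% of genes had a smaller SD. Egln2 against Egln3 had an SD of 0.17, with 8.18% of genes below it. Arnt2, the more abundant beta subunit, held no close ratio with Epas1 (SD 0.63, with 74.2% of genes below it). The same held for Arnt2 against Arnt (SD 0.57, with 67.6% of genes below it). These pairs were singled out after their values were seen, and Epas1 against Arnt had the smallest SD of all 36 pairs. Its share of 1.39% is therefore that of an extreme pair.

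Subunits and hydroxylases stood in different ratios in the 3 rats. Hif1a was 0.632, 0.330 and 0.871 times Egln2 in rats 12, 24-4 and 33, and Epas1 was 1.35, 0.872 and 2.37 times Egln2. The FPKM of the 3 alpha subunits summed to 67.0, 54.4 and 87.3, and that of Egln2 and Egln3 to 41.9, 57.1 and 35.3. The alpha sum was therefore 1.60, 0.952 and 2.48 times the hydroxylase sum, a 2.60-fold span between rats 33 and 24-4. The hydroxylase sum lacks Egln1, so these ratios do not cover all prolyl hydroxylases. With the beta subunits added, the subunit sum was 3.19, 2.01 and 3.90 times the hydroxylase sum, a 1.94-fold span. It was 8.88, 6.02 and 6.38 times Vhl in rats 12, 24-4 and 33. The SD of the log2 difference was 0.70 for Epas1 against Egln2 and 0.69 for Hif1a against Egln2, and 85.9% and 83.4% of genes had a smaller SD against Epas1 and Hif1a. With Vhl, Hif1a stood at 1.41, 0.774 and 1.08 times, and Egln2 at 2.23, 2.35 and 1.24 times.

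**Figure D3:**
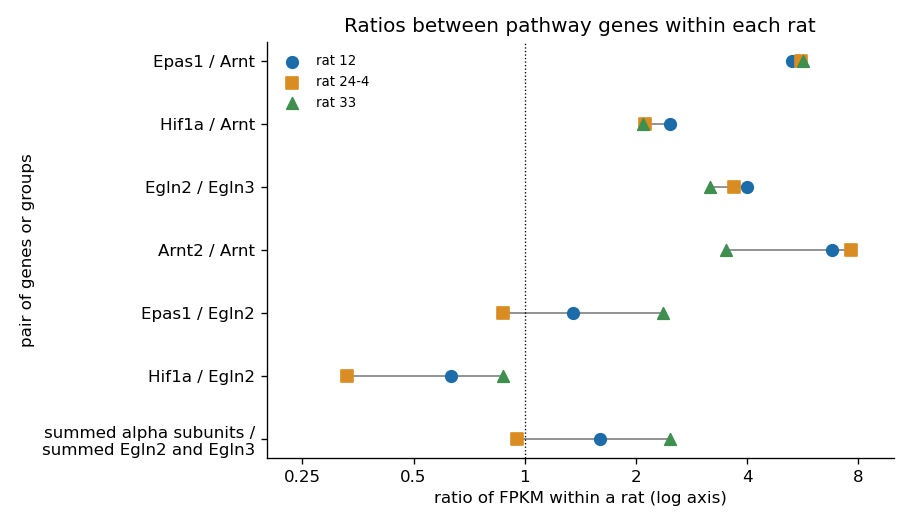
Ratio of FPKM between 2 genes, or between 2 sums of genes, within each rat (log axis); each point is a rat and the grey line spans the 3 rats. Epas1 over Arnt stays between 5.29 and 5.68, while the summed alpha subunits over summed Egln2 and Egln3 run between 0.952 and 2.48.

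By medians, the subunits lay near the hydroxylases and near Vhl. The median log2(FPKM + 1) of the 5 subunits was 4.47, 3.98 and 4.61 in rats 12, 24-4 and 33, which is the value of Hif1a in each rat. That of Egln2 and Egln3 was 4.17, 4.62 and 4.02, and that of Vhl 4.00, 4.33 and 4.49. Subunits minus prolyl hydroxylases gave 0.30, -0.64 and 0.59, a mean of 0.08 ± 0.64. Subunits minus Vhl gave 0.47, -0.35 and 0.11, a mean of 0.08 ± 0.41. Prolyl hydroxylases minus Vhl gave 0.17, 0.29 and -0.48, a mean of -0.01 ± 0.41. None of the 3 differences had the same sign in every rat, and each mean was smaller than its SD. Without Hif3a the subunit median exceeded that of the hydroxylases by 0.60 ± 0.50 and Vhl by 0.60 ± 0.35, positive in all 3 rats in both cases. With Egln1 not analysed here, the hydroxylase values cover 2 of the 3 enzymes.

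All 36 pairs of the 9 genes were compared within rats, of which 30 had the same sign in all 3. The exact sign-flip permutation test, two-sided, gave p = 0.25 for these 30, the smallest value that 3 rats allow (adjusted p = 0.3 over the 36 pairs), so no pair could pass 0.05. In the order of mean levels, 3 of the 8 pairs of neighbours kept their sign in all rats: Egln2 above Hif1a by 0.79 ± 0.69, Vhl above Egln3 by 0.88 ± 0.34, and Arnt above Hif3a by 2.68 ± 0.31 (log2 difference). The other 5 pairs of neighbours changed sign between rats. Arnt2 minus Epas1 was 0.04 ± 0.63, Epas1 minus Egln2 0.48 ± 0.70, Hif1a minus Vhl 0.08 ± 0.41, Egln3 minus Hif1an 0.08 ± 0.27 and Hif1an minus Arnt 0.03 ± 0.44. The order of these neighbours is therefore not settled by the data. Of the 13 pairs listed for comparison, 7 could be formed without Egln1, and 6 of these kept their sign, all but Hif1a minus Vhl.

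Cell type markers differed in level between the rats, in some lists in the order of a HIF gene. Among all genes tested, 41.97% were highest and 28.9% lowest in rat 33. Arnt2, Hif1an and Egln2 were lowest in rat 33, and the neuron markers were also lowest there in 9 of 10. Their sums were 4098, 3356 and 2014 FPKM in rats 12, 24-4 and 33. Nrgn and Snap25 were the most abundant, and Snap25 was the exception, with 1178, 379 and 440 FPKM, lowest in rat 24-4. Epas1, Arnt, Vhl and, as deposited but not under every scaling, Hif1a were highest in rat 33. The endothelial markers were highest there in 6 of the 7 found, with sums of 74.0, 103.8 and 101.2. Cldn5 and Flt1 led this list, and Cldn5 was the exception, with 33.6, 62.2 and 42.6, highest in rat 24-4. The mural markers (led by Rgs5 and Tagln) were highest in rat 33 in 7 of 8, with sums of 112, 91.5 and 201. Astrocyte markers, led by Gfap and S100b, were highest in rat 33 in 6 of 10, with sums of 1399, 2404 and 3198. Microglia markers, led by C1qa, were highest there in 8 of 8, with sums of 162, 248 and 419. Oligodendrocyte markers, led by Mbp, were highest there in 8 of 8 too, with sums of 5603, 7399 and 12830.5. Of 5 red blood cell markers, led by Hba1 and Hba2, 3 were tested, each lowest in rat 24-4 as the alpha subunits were, with sums of 558, 84.1 and 391. No marker of these lists was at 0, and Pecam1 was not found. The part of cell composition in the levels of the HIF genes was not tested.

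All 8 listed partners of Vhl in its ubiquitin ligase were expressed. Elongin B (Elob, under the name Tceb2) had 49.7, 76.4 and 65.4 FPKM in rats 12, 24-4 and 33 and elongin C (Eloc, under Tceb1) 25.5, 17.3 and 20.6. Rbx1, the ring finger subunit, was the highest of the list at 115 ± 20.1, and the scaffold Cul2 the lowest at 10.6 ± 2.03. Nedd8, which modifies the scaffold, had 85.1 ± 15.3 and the ubiquitin-conjugating enzyme Ube2d3 82.7 ± 10.4. Ube2d1 varied most, with 17.5, 27.2 and 27.0. All 8 entered the limma test and 0 passed, adjusted or unadjusted.

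Over the lists of genes that HIFs are known to activate, for glycolysis, vessels and red cells, and other targets, 36 genes besides the members entered the limma test. None passed after adjustment, and in 4 (11.1%) the p before adjustment was under 0.05, against 5.96% of all genes tested. These were Tf, Tfrc, Hmox1 and Car12. Of the 36, 11 were highest in rat 12, 11 in rat 24-4 and 14 in rat 33, against 23.8%, 34.2% and 41.97% of all genes tested. The median SD of log2(FPKM + 1) was 0.32 in the 36 genes and 0.32 over all genes tested.

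Glycolytic targets were mostly highest in rat 24-4, where Hif1a was lowest. Of 13 tested, 9 were highest in rat 24-4 and 1 lowest there, against 34.2% and 33.3% of all genes tested, and the median deviation from the mean of the rats was -0.10, 0.29 and -0.15 in rats 12, 24-4 and 33. Over all genes tested these medians were -0.06, 0.01 and 0.07. Aldoa, an aldolase, had 824, 1154 and 731 FPKM, Gapdh 378, 563 and 387, and the pyruvate kinase gene Pkm 282, 382 and 226. The hexokinase gene Hk2 varied most and was the lowest tested, with 2.49, 3.26 and 7.10. Pkm stood in more than 1 row of the tables, and its level is uncertain for that reason.

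Targets of vessels and red cells were mostly highest in rat 33. Of 10 tested, 7 were highest in rat 33, against 41.97% of all genes tested. The median deviation was -0.17, -0.16 and 0.21 in rats 12, 24-4 and 33, and -0.06, 0.01 and 0.07 over all genes tested. Endothelial markers were highest in rat 33 in 6 of 7 and mural markers in 7 of 8, and Flt1 and Kdr stand in both the target list and the endothelial list; the part of these cells in the target levels was not tested. Tf, which encodes the iron carrier transferrin, had 317, 556 and 1320 FPKM and an unadjusted limma p of 0.0417 (adjusted p = 0.809). The transferrin receptor gene Tfrc had 39.6, 13.6 and 19.4 (unadjusted p = 0.0449, adjusted p = 0.813). Vegfa, the endothelial growth factor, had 31.2, 17.6 and 27.4, lowest in rat 24-4 as Hif1a was. Angpt2 was the lowest tested at 1.26 ± 0.29, and Epo, the red cell hormone, was listed at 0 in all rats. Hmox1, the heme-degrading enzyme, singled out after its values were seen, had 2.83, 6.96 and 13.6 (limma, adjusted p = 0.680). Oligodendrocytes also make Tf, and their markers were highest in rat 33, whose part in Tf was not tested.

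In the list of other targets, which includes Egln3, 8 of 14 tested were highest in rat 12, against 23.8% of all genes tested. The mitophagy receptor genes Bnip3 and Bnip3l had 56.8 ± 9.54 and 42.1 ± 8.52 FPKM, and the stress gene Ndrg1 had 55.6, 103 and 149 in rats 12, 24-4 and 33. Car12, a carbonic anhydrase of the cell surface, had the largest spread, with 24.1, 9.04 and 88.4 (limma, adjusted p = 0.202). It had the order of the choroid plexus markers, whose part in it was not tested. The chemokine receptor Cxcr4 was the lowest tested at 1.24 ± 0.65, and Mif was listed at 0 in all rats. Whether that 0 reflects absent RNA or the way fragments were assigned to genes was not tested.

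**Figure D4:**
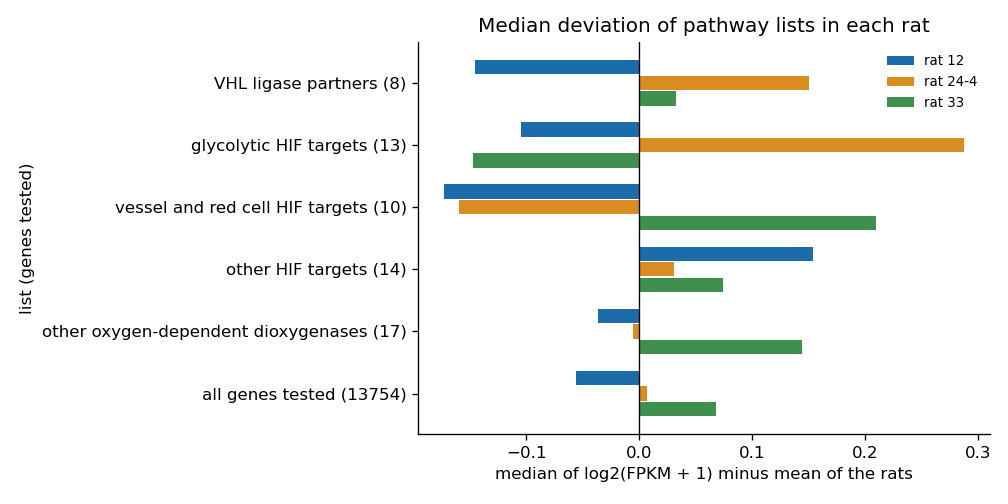
Median over the tested genes of each list of log2(FPKM + 1) minus the mean of the rats, 1 bar per rat, with the number of genes in parentheses. Rat 24-4 is at 0.29 for the glycolytic list and at -0.16 for the vessel and red cell list, against 0.01 over all 13754 genes.

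Among other oxygen-dependent dioxygenases and a partner subunit listed with them, P4htm and that partner, P4hb, had a mean level above that of Egln2. The list had 18 genes, 17 tested, with 0 passing the limma test, adjusted or unadjusted. P4hb (76.7 ± 23.9 FPKM), protein disulfide isomerase, which is the non-catalytic subunit of collagen prolyl hydroxylase, and P4htm (42.5 ± 15.7), a membrane prolyl hydroxylase reported to act on HIF alpha, were the highest. P4htm had 35.4, 60.5 and 31.5 in rats 12, 24-4 and 33, the same order as Egln2 and as 17.7% of all genes tested. Of the 17 tested in this list, 10 were highest in rat 33, against 41.97% of all genes tested. P4ha1, a catalytic subunit of collagen prolyl hydroxylase, had 19.1 ± 3.36, and Kdm5a, a histone demethylase, was the lowest tested at 2.36 ± 0.65.

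The genes closest to Hif1a and Epas1 in level and pattern were found by the largest difference in log2(FPKM + 1) over the 3 rats. Vps4b was closest to Hif1a, with a largest difference of 0.03 over the rats and 14.8 FPKM in rat 24-4 and 23.9 in rat 33. Ccdc25 (0.09) and Sec63 (0.10) followed. Ppp2r2a was closest to Epas1, with a largest difference of 0.08 and 46.6, 38.9 and 60.1 FPKM in rats 12, 24-4 and 33. Tardbp (0.11) and LOC100911664 (0.13) came next. The likeness rests on 3 rats and describes these libraries.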

How the data were processed

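RNA of motor cortex from 3 rats of 1 group was sequenced. The deposited values are FPKM, computed by the authors from fragment counts per gene after a normalization, per the series' design text. The submitters' processing notes list HISAT2 2.0.4, StringTie 1.3.0 and Rnor_6.0. How counts were normalized and whether strand was used is not given in the sources used here, so overlapping genes may share fragments. The depth of each library was inferred from short loci (up to 400 bp), where 93.3%, 93.1% and 93.4% of low values in rats 12, 24-4 and 33 were whole multiples of 1 fragment (tolerance 0.02). The smallest fitting depth was taken, and floors reflect counting error alone.

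All tests used log2(FPKM + 1), a scale that shrinks differences between low values. Variability was tested over every gene whose mean FPKM reached 1 by an intercept fit in limma 3.58.1 (R 4.3.3) with a trended, robust prior. Residual over prior variance was compared with the F distribution, one-sided, with Benjamini-Hochberg adjustment. The test was tested on simulated data. Pairs were compared by an exact sign-flip permutation test. Scripts ran in Python 3.11.15 (pandas 2.3.3, numpy 2.4.6, scipy 1.17.1).

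Members, lists and pairs were chosen with earlier results of these data known. Of 171 genes in 20 lists 166 were matched, 4 by an older symbol, and 3 stood in more than 1 row, where the row of higher mean was kept. Named were all members and, per pathway list, the 3 highest genes, the lowest tested, the one with the largest SD and any that passed the test, and of each marker list the 2 highest, of which some are not reported here. Genes given beyond the rule (Elob, Eloc, Hmox1, and Epo, Mif and Sim1, listed at 0) were named after their values were seen. Alternatives were another pseudocount, filter, prior and scaling, and each rat left out. Promoter windows come from RefSeq tables of GRCr8, whose coordinates are not those of the deposited tables. For Epas1 the strand differs as well, minus in GRCr8 and plus in the deposited tables.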

Additional observations from a re-analysis of the deposited data

How the results depend on the processing

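The count of 14 variable genes depended on the settings: 23 passed in limma with a pseudocount of 0.1, 35 with median-of-ratios scaling, and 0 with the filter lowered to a mean FPKM of 0.1, without any filter, with a prior that is not robust, or without the mitochondrial genome. For the 4 settings with 0 calls 903, 864, 733 and 684 genes had an unadjusted p under 0.05. With a rat left out the count ran from 0 (without rat 24-4, 631 genes with an unadjusted p under 0.05) to 101 (without rat 12), with 66 without rat 33. None of the HIF genes passed under any of these settings, where their lowest adjusted p was 0.961. The cause of the changes was not tested. Subunits minus prolyl hydroxylases ran from -0.17 to 0.44 with a rat left out (-0.03 without rat 12, -0.17 without rat 33) and was -0.37 with means in place of medians, since Hif3a then lowers the subunits. Subunits minus Vhl ran from -0.12 without rat 12 to 0.29 without rat 24-4, and was -0.37 with means and 0.60 without Hif3a. Prolyl hydroxylases minus Vhl ran from -0.15 to 0.23, where 0.23 was without rat 33. Of 180 pair values under the alternatives, 173 kept the sign. The other 7 came with a rat left out: Arnt2 minus Epas1 ran from -0.16 to 0.40 (-0.12 without rat 12, -0.16 without rat 24-4), and Hif1a minus Vhl from -0.12 without rat 12 to 0.29. Egln3 minus Hif1an ran from -0.049 without rat 24-4 to 0.22, Egln3 minus Arnt from -0.19 without rat 24-4 to 0.35, and Hif1an minus Arnt from -0.14 to 0.28 (-0.05 without rat 12, -0.14 without rat 24-4). Conditions could not be paired because there is 1 group, so only genes were paired, within a rat. The scaling without the mitochondrial genome for the medians, and the pairs beyond the 7 listed ones, were added after seeing the data. Depth limits Hif3a most, at an FPKM of 0.421 to 0.662.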

Other observations

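The alpha and beta subunits belong to the bHLH-PAS family of transcription factors, and other members of that family lay lower than Epas1 and Arnt2. Of 14 genes listed, 13 were found and 8 tested, with 0 passing the limma test, adjusted or unadjusted. The coactivator genes Ncoa1 and Ncoa2 had 24.0 ± 4.01 and 12.1 ± 1.17 FPKM (SD, n = 3 rats). Npas2, a gene of the circadian clock, had 22.6, 25.4 and 13.3 in rats 12, 24-4 and 33, lowest in rat 33 as Arnt2 was. The receptor gene Ahr, which pairs with Arnt, was the lowest tested at 1.92 ± 0.72. Npas4, induced by neuronal activity, had the largest spread, with 1.93, 0.801 and 0.156, but its mean FPKM of 0.963 kept it out of the test. Its value in rat 33 lies below the 0.231 of 3 fragments in a gene of 1 kb there. Sim1 was listed at 0 in all rats.

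Genes that modify HIF activity were expressed in every rat, and 0 of 16 passed the limma test, adjusted or unadjusted. Hsp90ab1, a chaperone of HIF-1 alpha, was the highest at 595 ± 106 FPKM, followed by Rack1 (under the name Gnb2l1, which stood in more than 1 row) at 74.5 ± 22.2 and Os9 at 69.7 ± 12.3. Cited4, a competitor for the coactivators, had the largest spread, with 4.89, 3.18 and 1.12 in rats 12, 24-4 and 33. Rora was the lowest at 1.48 ± 0.43.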
